A study of Homo sapiens with 8 samples.

Results

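The 40 genes described here encode hydrolases of the lysosome, proteins that help them and proteins of the lysosomal membrane. Membership was set by a list of gene symbols, and all 40 were found among the 58735 genes counted. The list was chosen with earlier results of these data known, so its counts and medians are descriptions. They fall into 9 proteases, 11 glycosidases, 5 sulfatases, 7 lipid enzymes and lipid-binding proteins, 7 membrane proteins and progranulin. Total RNA of 22Rv1 cells, an established human prostate carcinoma line, was sequenced in 2 groups of 4 libraries. The MARK3i group was treated with PCC0208017, which the submitters describe as an inhibitor of the kinase MARK3, and the Control group with its solvent DMSO. The labels name no genetic alteration in either group, and both come from 1 cell line. The sources used here give neither dose nor duration. The activity of MARK3 was not measured, so effects of the compound through MARK3 and through other targets cannot be told apart. Since no label says that the replicates were cultured separately, the p-values reflect only how far these libraries spread, which may be technical.

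Lysosomes are acidic, membrane-bound compartments in which proteins, glycans, lipids and nucleic acids are broken down into units that the cell reuses. Most soluble hydrolases are made in the endoplasmic reticulum, tagged with mannose 6-phosphate in the Golgi and carried to the lysosome by receptors, while the membrane proteins protect the limiting membrane, carry cargo out or form channels. Many of these genes hold an E-box that the MiT transcription factors TFEB, TFE3 and MITF can bind, and loss of single members causes lysosomal storage diseases.

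Total counts per library ranged from 13517289 to 21271127 in MARK3i and from 12672817 to 13386143 in Control libraries. Mitochondrial genes took 6.66% to 7.05% of counts in MARK3i and 6.43% to 6.61% in Control libraries. Control replicates 1 and 2, and Control replicates 3 and 4, were closer to each other than the pairs across them. All 12 markers of prostate luminal epithelium passed the filter on low counts, and EPCAM, KRT8, KRT18 and FOXA1 averaged 100, 553, 307 and 484 CPM in MARK3i, against 97.8, 592, 418 and 483 CPM in Control. CPM is a gene's count brought to a common library size. The summed level of these 12 markers was 2027 to 2116 CPM in MARK3i and 2777 to 2861 CPM in Control, with 1 higher and 8 lower. Among those 8, KLK3, the gene of prostate-specific antigen, averaged 0.819 CPM in MARK3i and 21.6 CPM in Control, a level 26.8-fold lower in MARK3i. KLK4, TMPRSS2, KLK2 and SLC45A3 were 13.5-fold, 11.6-fold, 11-fold and 5.36-fold lower in MARK3i. STEAP2, FOLH1 and KRT18 were 2.52-fold, 1.69-fold and 1.36-fold lower in MARK3i. The marker that was higher was CDH1, 1.24-fold, while EPCAM, KRT8 and FOXA1 did not pass the test. None of 10 macrophage markers and none of 6 endothelial markers passed the filter. Markers of macrophages, which are rich in lysosomes, summed to 1.121 to 1.438 CPM in MARK3i and 0.3916 to 0.9020 CPM in Control, with 3 of the 10 at 0 in every library. Endothelial markers summed to 0.1383 to 0.3503 CPM in MARK3i and 0.07802 to 0.4752 CPM in Control, with 2 at 0 throughout. Of 9 fibroblast markers 2 passed the filter, COL1A1 higher and LUM lower in MARK3i, and 2 were at 0 throughout. Their sums were 15.06 to 21.93 CPM in MARK3i and 12.75 to 18.12 CPM in Control.

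Most of the 40 genes had more RNA in the treated cells. In MARK3i against Control, 25 rose, 4 fell and 11 did not pass the test, an adjusted p under 0.05 in the quasi-likelihood test of edgeR (Benjamini-Hochberg adjustment, 16452 genes tested). All 40 passed the filter. These counts stand beside a broad response, since 58.0% of all tested genes were called, 29.8% higher and 28.3% lower. The median log2 change, MARK3i minus Control, was 0.35 over the 40 genes and 0.02 over all tested genes. Values are CPM scaled by trimmed mean of M-values (TMM) factors. A ± after a log2 change gives its standard error, which is left out for some changes, and a ± after a mean CPM gives the SD.

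All 4 MARK3i libraries lay above all 4 Control libraries for 25 of the 40 genes, and below them for 7. Over all tested genes the shares were 25.8% above and 25.1% below. Together the 40 genes reached 4579, 4651, 4389 and 4610 CPM in MARK3i replicates 1 to 4, against 3843, 3856, 3898 and 3945 CPM in Control replicates 1 to 4. Every MARK3i sum was above every Control sum. Without scaling factors they made up 0.462% to 0.486% of counts in MARK3i and 0.371% to 0.378% in Control. In bulk RNA, a change in the share of cells that express a gene and a change in RNA per cell cannot be told apart. The mitochondrial share was also higher in MARK3i and the luminal marker sum lower, and their part in these changes was not tested. The macrophage sum was higher too, and was at most 1.438 CPM in any library.

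**Figure D1:**
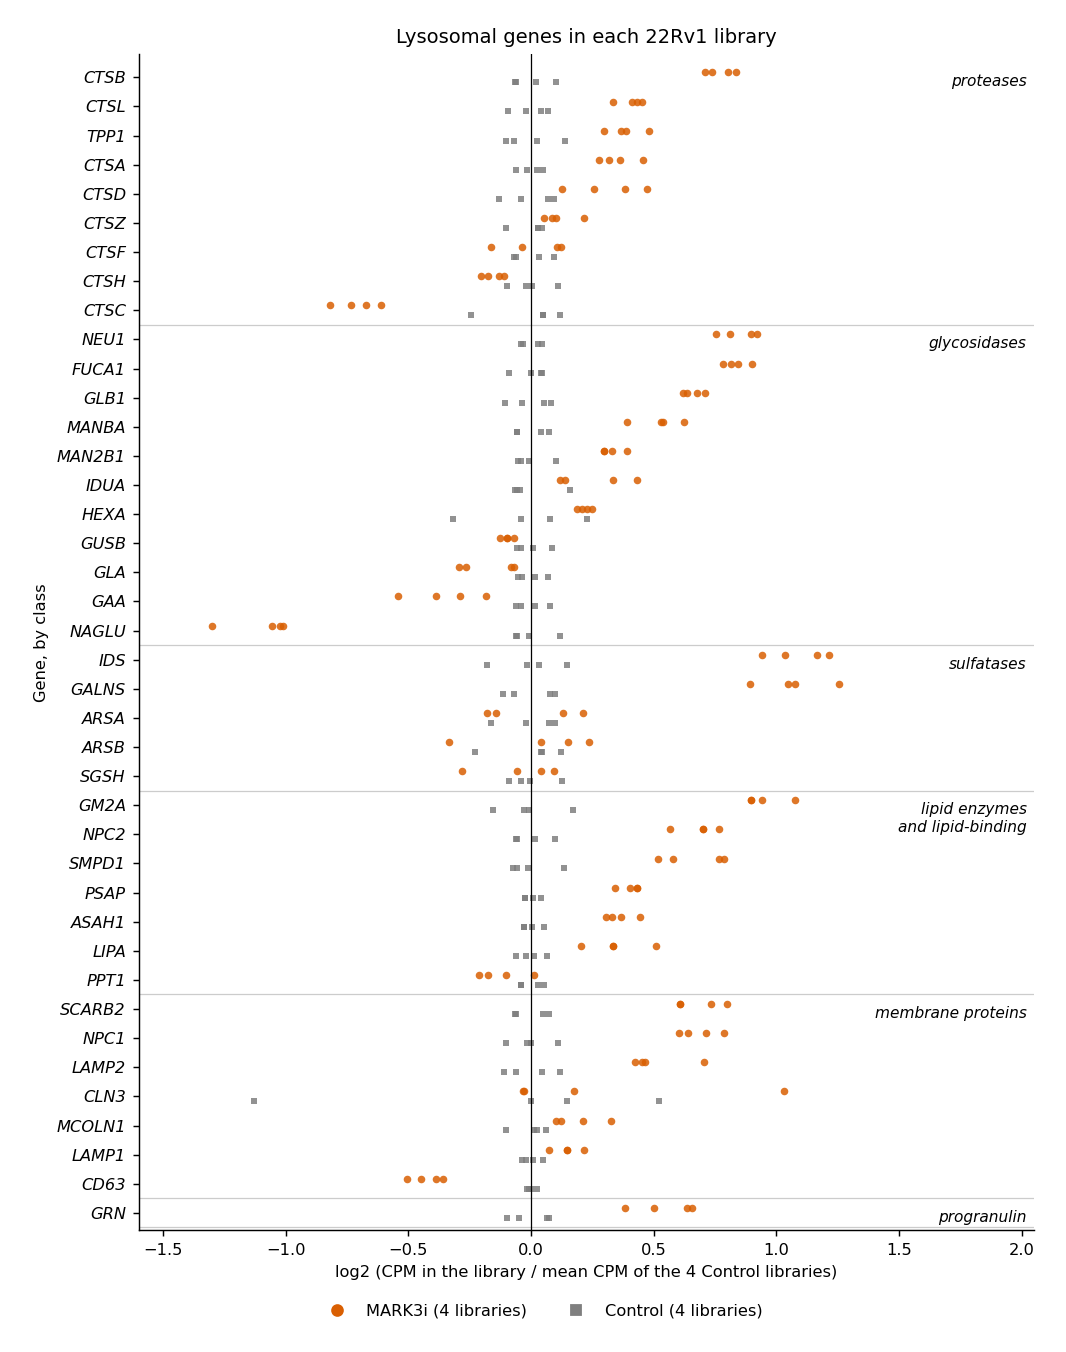
The horizontal axis gives the log2 ratio of each library's CPM to the mean of the 4 Control libraries, and each row is 1 gene, grouped by class, with orange circles for the 4 MARK3i and grey squares for the 4 Control libraries. MARK3i libraries lie wholly to the right of Control libraries for 25 genes and wholly to the left for 7, with NAGLU, CTSC, CD63 and GAA the 4 that fell.

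Promoter sequence was looked up because these genes moved largely in 1 direction and many lysosomal genes hold an E-box. RefSeq windows on GRCh38.p14, from 250 bases before to 50 after an annotated start site, were matched by symbol for 31 of the 40 genes, with 44 windows. NAGLU, ARSA, CTSB, LAMP2, ASAH1, MANBA, HEXA, PSAP and SGSH had no entry. The core motif searched was CACGTG, which reads the same on both strands. The longer forms TCACGTG, searched on both strands, and TCACGTGA contain it, so their matches are a subset. CACGTG was in 12 of the 44 windows (27.3%) and in 7.26% of all 35116 windows, or 9.25% of the windows of tested genes. TCACGTG was in 25% of the 44 windows, 3.71% of all windows and 5.31% of those of tested genes. TCACGTGA was in 15.9% of the 44, 0.98% of all windows and 1.6% of those of tested genes. Counted by gene, the core was in 11 of the 31 (35.5%) and in 12.5% of the tested genes matched to a window. The 11 genes with the core motif included 6 that rose (NEU1, CTSD, LAMP1, GALNS, MCOLN1 and CTSA), 2 that fell (GAA and CD63) and 3 that did not pass (ARSB, CTSF and CLN3). A match describes the letters in the window only.

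LAMP1, with 6 core matches, is shown over the 250 bases before its start site, chr13:113296989-113297238 on the plus strand, which hold 5 of them whole. The other sequences are 30 bases around single matches, each chosen to set genes that rose beside genes that fell. They are written 5′ to 3′ on the gene's strand, capitals mark CACGTG, and positions count from the start site as 1 with no position 0, at the first base of the match. NEU1 is shown at -126 (chr6:31862930-31862959, minus strand), GALNS at -174 (chr16:88857104-88857133, minus strand), CTSA at -25 (chr20:45891298-45891327, plus strand) and MCOLN1 at -41 (chr19:7522571-7522600, plus strand). All of these rose. GAA at -76 (chr17:80101493-80101522, plus strand) and at -31 (chr17:80101538-80101567, plus strand) and CD63 at -180 in 1 of its 8 windows (chr12:55729172-55729201, minus strand) are from genes that fell.
LAMP1: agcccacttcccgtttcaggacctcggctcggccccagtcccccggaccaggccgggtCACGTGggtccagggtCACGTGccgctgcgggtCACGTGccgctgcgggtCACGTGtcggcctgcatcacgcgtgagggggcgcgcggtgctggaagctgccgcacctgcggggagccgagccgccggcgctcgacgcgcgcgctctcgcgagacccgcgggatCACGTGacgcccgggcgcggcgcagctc
NEU1: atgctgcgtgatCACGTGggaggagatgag
GALNS: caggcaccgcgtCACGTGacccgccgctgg
CTSA: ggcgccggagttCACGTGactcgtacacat
MCOLN1: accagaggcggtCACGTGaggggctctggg
GAA, -76: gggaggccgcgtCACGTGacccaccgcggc
GAA, -31: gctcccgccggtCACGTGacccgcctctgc
CD63: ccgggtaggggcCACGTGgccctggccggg

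The full TCACGTGA form stood in windows of CLN3, CTSA, GAA, GALNS, LAMP1 and MCOLN1, of which 4 rose, GAA fell and CLN3 did not pass. GAA carried it in both of its matches. Matched genes without the core motif that rose were IDS, GM2A, FUCA1, SCARB2, NPC1, NPC2, SMPD1, GLB1, GRN, CTSL, TPP1, LIPA, MAN2B1 and IDUA. CTSC, also without it, fell, and CTSH, CTSZ, GLA, GUSB and PPT1, likewise without it, did not pass. Whether the motif had a part in these changes was not tested. Over all 11524 tested genes matched to a window, 32.7% were higher and 29.1% lower. Among the 1438 of them with the core CACGTG, 26.4% were higher and 35.6% lower, with a median log2 change of -0.06. For the 826 with TCACGTG these values were 31.6%, 28.5% and 0.02. Among the 247 with TCACGTGA, 34.4% were higher and 25.1% lower, with a median log2 change of 0.04, as over all matched genes (0.04).

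**Figure D2:**
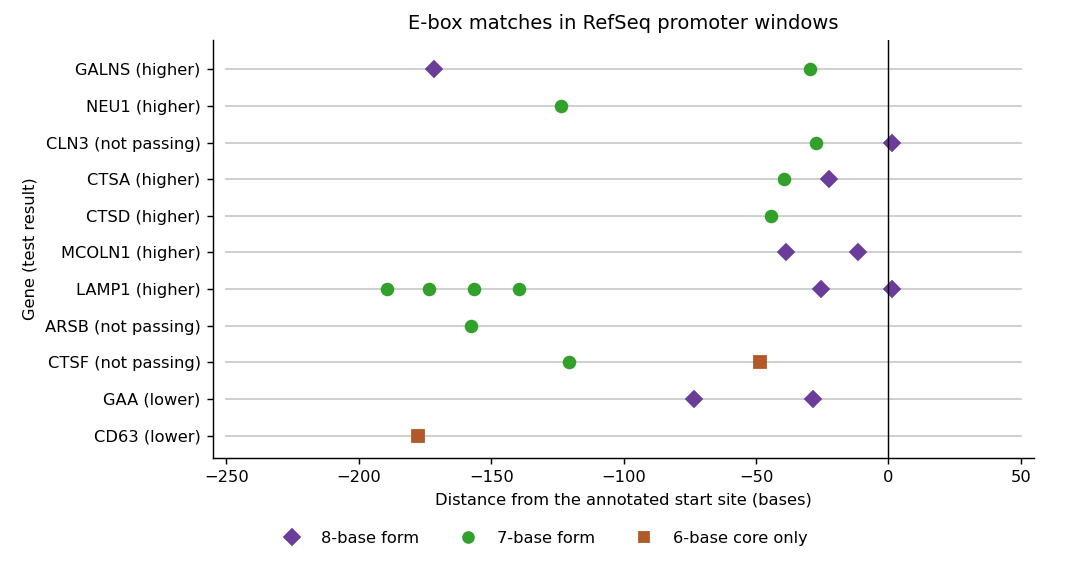
The horizontal axis gives the distance of each match's centre from the annotated start site in bases, and each row is 1 of the 11 genes with a match, labelled with its test result; diamonds are the 8-base form, circles the 7-base form and squares the 6-base core alone. LAMP1 has 6 matches, and GAA, which fell, has 2 of the 8-base form.

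The proteases, most of them cathepsins, cut proteins delivered to the lysosome. Of 9, 5 rose (CTSB, CTSL, TPP1, CTSA and CTSD), CTSC fell and 3 did not pass, with a median log2 change of 0.32. CTSB, the abundant cysteine protease cathepsin B (ENSG00000164733, chr8:11842524-11869533, minus strand, GENCODE on hg38), had 166, 178, 163 and 174 CPM in MARK3i replicates 1 to 4, against 95.4, 95.2, 101 and 107 CPM in Control replicates 1 to 4. Every MARK3i library lay above every Control library, and the change was 0.77 ± 0.06 on the log2 scale, or 1.71-fold (adjusted p = 4.29e-11). CTSL, the cysteine endopeptidase cathepsin L (ENSG00000135047, chr9:87724051-87731469, plus strand), had 48.4, 45.9, 49.8 and 49.0 CPM in MARK3i, against 35.9, 38.1, 34.1 and 37.4 CPM in Control. The groups did not overlap, and CTSL was 1.32-fold higher (0.41 ± 0.07, adjusted p = 2.20e-05).

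CTSC, cathepsin C or dipeptidyl peptidase I, which trims and activates serine proteases of immune cells (ENSG00000109861, chr11:88265069-88359684, minus strand), went the other way. It had 16.3, 15.6, 17.0 and 14.7 CPM in MARK3i, against 26.9, 26.9, 21.9 and 28.2 CPM in Control. Control replicate 3 was the lowest of its group and still above all MARK3i libraries. The log2 change was -0.71 ± 0.09, a level 1.64-fold lower in MARK3i (adjusted p = 3.93e-07).

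The other proteases that rose did so by less. TPP1, the tripeptidyl peptidase lost in a childhood neuronal ceroid lipofuscinosis, rose 1.31-fold (0.39 ± 0.07, adjusted p = 4.28e-05). CTSA, the protective protein that holds NEU1 and GLB1 in a complex, averaged 95.2 ± 5.04 CPM in MARK3i and 74.5 ± 2.48 CPM in Control (SD, n = 4 each) and rose 1.28-fold. PLTP on the opposite strand shares 3.8% of the exon bases of CTSA and fell by 1.42 on the log2 scale. CTSD, the main aspartic protease, averaged 104 ± 10.6 CPM in MARK3i and 83.6 ± 5.95 CPM in Control and rose 1.24-fold (0.32 ± 0.07, adjusted p = 6.06e-04). With offsets that remove the relation to GC content, the CTSD change was 0.52. ENSG00000250644 on the same strand shares 22.9% of the exon bases of CTSD, and PRADX on the opposite strand 23.4%. Their counts were 0.180% and 0.334% of those of CTSD.

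CTSZ, a carboxypeptidase (ENSG00000101160, chr20:58985686-59008238, minus strand), had the highest Control level per length of the proteases, 61.7 CPM per kb of canonical transcript in MARK3i and 57.0 in Control. It had 88.7, 99.4, 90.9 and 91.8 CPM in MARK3i, against 79.7, 88.3, 87.2 and 87.2 CPM in Control. The libraries did not overlap, but the log2 change of 0.12 ± 0.06 did not pass (adjusted p = 0.110). NELFCD on the opposite strand shares 31.7% of the exon bases of CTSZ and fell (log2 change -0.31), and the sources used here do not say whether reads were counted by strand. CTSF, a cysteine protease, averaged 88.2 ± 8.03 CPM in MARK3i and 87.6 ± 4.74 CPM in Control, and its change of 0.01 ± 0.07 did not pass. CTSH, an aminopeptidase, had a change of -0.16 ± 0.07 that did not pass (adjusted p = 0.0696), with every MARK3i library below every Control library.

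The glycosidases remove sugars from glycoproteins, glycolipids and glycosaminoglycans. Of 11, 6 rose (NEU1, FUCA1, GLB1, MANBA, MAN2B1 and IDUA), NAGLU and GAA fell and 3 did not pass, with a median log2 change of 0.27. NEU1, the lysosomal sialidase (ENSG00000204386, chr6:31857659-31862905, minus strand), had 177, 188, 170 and 191 CPM in MARK3i replicates 1 to 4, against 98.1, 104, 103 and 98.5 CPM in Control replicates 1 to 4. The groups were well apart, and NEU1 was 1.79-fold higher (0.84 ± 0.06, adjusted p = 5.88e-12). FUCA1, the lysosomal fucosidase (ENSG00000179163, chr1:23845077-23868290, minus strand), had 45.0, 44.2, 43.2 and 46.9 CPM in MARK3i, against 25.9, 25.8, 23.6 and 25.1 CPM in Control. No libraries overlapped, and FUCA1 was 1.78-fold higher (0.83 ± 0.07, adjusted p = 4.75e-10).

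NAGLU, the N-acetylglucosaminidase of heparan sulfate breakdown lost in Sanfilippo syndrome type B (ENSG00000108784, chr17:42536241-42544449, plus strand), showed the largest fall among the 40 genes. It had 21.7, 26.5, 26.3 and 25.7 CPM in MARK3i, against 51.3, 51.2, 53.1 and 58.0 CPM in Control. MARK3i replicate 1 was the lowest, and the groups did not overlap. The log2 change was -1.09 ± 0.08, a level 2.13-fold lower in MARK3i (adjusted p = 1.27e-11). GAA, the acid glucosidase that breaks down glycogen and is lost in Pompe disease (ENSG00000171298, chr17:80101533-80119881, plus strand), had the highest Control level per length of the glycosidases, 43.1 CPM per kb in MARK3i and 54.7 in Control. It had 141, 181, 157 and 168 CPM in MARK3i, against 197, 200, 208 and 217 CPM in Control. All MARK3i libraries were below all Control libraries, with a log2 change of -0.34 ± 0.07 and a level 1.27-fold lower in MARK3i (adjusted p = 8.52e-05). With GC offsets the fall of GAA was smaller, at -0.13, and still passed (adjusted p = 0.0210).

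GLB1, the beta-galactosidase that acts on GM1 ganglioside and keratan sulfate, averaged 1.58-fold higher in MARK3i (0.66 ± 0.07, adjusted p = 5.43e-09). The mannosidases MANBA and MAN2B1, which take apart the mannose core of N-glycans, rose 1.44-fold and 1.26-fold. IDUA, the iduronidase of heparan and dermatan sulfate breakdown, had 15.1, 18.5, 14.9 and 17.3 CPM in MARK3i, against 13.1, 13.3, 15.3 and 13.2 CPM in Control. Control replicate 3 lay above 2 MARK3i libraries, and the change of 0.27 ± 0.10 passed narrowly (adjusted p = 0.0259). Its call was lost in 7 of 18 alternative fits, among them those without MARK3i replicate 2 or 4 or Control replicate 1, 2 or 4 (adjusted p 0.0641 to 0.115), and with GC offsets its change was 0.53. The remaining glycosidases did not pass. GLA, the alpha-galactosidase lost in Fabry disease, had a change of -0.18 ± 0.08. GUSB, the beta-glucuronidase, had one of -0.10 ± 0.06. For HEXA, the hexosaminidase gene lost in Tay-Sachs disease, it was 0.22 ± 0.11. RPL36A on the opposite strand shares 9.0% of the exon bases of GLA and fell by 1.31 on the log2 scale. SLC26A1, opposite IDUA, shares 13.2% of the exon bases of IDUA, and its log2 change of -0.09 did not pass.

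The sulfatases remove sulfate groups from glycosaminoglycans and sulfatides. IDS and GALNS rose about equally, and ARSA, ARSB and SGSH did not pass, so the median of the 5 was 0.02 (-0.02 to 0.14 when single libraries were left out), beside 0.02 for all tested genes. IDS, the iduronate sulfatase lost in Hunter syndrome (ENSG00000010404, chrX:149476988-149521096, minus strand), had 60.6, 73.3, 70.8 and 64.7 CPM in MARK3i replicates 1 to 4, against 32.3, 27.9, 35.0 and 31.2 CPM in Control replicates 1 to 4. The lowest MARK3i library was far above the highest Control library, and IDS was 2.14-fold higher (1.09 ± 0.08, adjusted p = 1.56e-11). An annotated gene on the same strand, ENSG00000241489, shares 75% of the exon bases of IDS, so reads of both are uncertain where they overlap, and it had 37 to 63 counts in MARK3i and 17 to 21 in Control libraries. GALNS, the galactosamine sulfatase of keratan and chondroitin sulfate breakdown lost in Morquio syndrome type A (ENSG00000141012, chr16:88813734-88856970, minus strand), had 16.8, 21.6, 19.1 and 18.7 CPM in MARK3i, against 9.55, 8.63, 9.68 and 8.35 CPM in Control. The groups did not overlap, and GALNS was 2.11-fold higher (1.08 ± 0.11, adjusted p = 3.67e-09).

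SGSH, the heparan sulfamidase (ENSG00000181523, chr17:80206716-80220923, minus strand), had the highest Control level per length of the sulfatases, 18 CPM per kb in MARK3i and 18.6 in Control. It had 41.3, 53.6, 51.7 and 48.3 CPM in MARK3i, against 47.2, 48.9, 54.8 and 50.1 CPM in Control. The groups overlapped, and the change of -0.04 ± 0.08 did not pass (adjusted p = 0.684). CARD14 on the opposite strand shares 3.5% of the exon bases of SGSH and rose by 0.49 on the log2 scale. ARSA, which desulfates sulfatide and is lost in metachromatic leukodystrophy, had 46.0, 58.9, 44.8 and 55.6 CPM in MARK3i, against 45.3, 50.1, 54.4 and 53.4 CPM in Control. Its change was 0.02 ± 0.09, with overlapping libraries. ARSB, which acts on dermatan and chondroitin sulfate, averaged 7.10 ± 1.15 CPM in MARK3i and 6.91 ± 0.699 CPM in Control, a change of 0.02 ± 0.14.

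The lipid enzymes and lipid-binding proteins had the largest share called higher among the classes of several genes: 6 of 7 rose, PPT1 did not pass and the median log2 change was 0.40. GM2A, the activator protein of GM2 ganglioside breakdown (ENSG00000196743, chr5:151212150-151270440, plus strand), had 28.6, 25.3, 26.1 and 25.3 CPM in MARK3i replicates 1 to 4, against 15.3, 12.2, 13.3 and 13.5 CPM in Control replicates 1 to 4. No libraries overlapped, and GM2A was 1.94-fold higher (0.95 ± 0.09, adjusted p = 2.34e-09). NPC2, the soluble carrier that hands cholesterol to NPC1 (ENSG00000119655, chr14:74476192-74494177, minus strand), had 124, 124, 113 and 130 CPM in MARK3i, against 73.4, 73.3, 81.7 and 77.2 CPM in Control. The groups were apart, and NPC2 was 1.61-fold higher (0.68 ± 0.06, adjusted p = 1.21e-09). SMPD1, acid sphingomyelinase (ENSG00000166311, chr11:6390440-6394998, plus strand), had 38.8, 44.2, 37.2 and 44.8 CPM in MARK3i, against 25.8, 25, 28.5 and 24.7 CPM in Control. Its groups did not overlap, and it was 1.59-fold higher (0.67 ± 0.08, adjusted p = 1.50e-07).

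PSAP, the precursor of the saposins that lift sphingolipids towards their hydrolases (ENSG00000197746, chr10:71816298-71851251, minus strand), had the highest level of the class, 277 CPM per kb in MARK3i and 210 in Control. It had 762, 777, 731 and 777 CPM in MARK3i, against 567, 580, 567 and 593 CPM in Control. The groups did not overlap, and PSAP was 1.32-fold higher (0.40 ± 0.05, adjusted p = 3.43e-07). ASAH1, acid ceramidase, rose 1.28-fold (0.36 ± 0.06, adjusted p = 4.80e-06), and with GC offsets its change was 0.21. LIPA, acid lipase, which frees cholesterol from its esters, rose 1.27-fold (0.35 ± 0.07, adjusted p = 3.12e-04). PPT1, the thioesterase that removes palmitate from proteins, had a change of -0.12 ± 0.06 that did not pass (adjusted p = 0.0984).

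The membrane proteins line the lysosome or carry lipids and ions across its membrane. Of 7, 5 rose (SCARB2, NPC1, LAMP2, MCOLN1 and LAMP1), CD63 fell and CLN3 did not pass. The median log2 change of 0.42 was the value of CLN3, which had few counts; it was 0.15 without MARK3i replicate 2, 0.18 without Control replicate 1, and 0.35 under the stricter filter, which left CLN3 out. SCARB2, or LIMP-2, an abundant protein of the lysosomal membrane (ENSG00000138760, chr4:76158737-76234536, minus strand), had 397, 348, 379 and 348 CPM in MARK3i replicates 1 to 4, against 240, 236, 218 and 219 CPM in Control replicates 1 to 4. All MARK3i libraries were above all Control libraries, and SCARB2 was 1.61-fold higher (0.69 ± 0.06, adjusted p = 3.13e-10). NPC1, the membrane protein that exports cholesterol (ENSG00000141458, chr18:23506184-23586506, minus strand), had 38.3, 35.5, 40.3 and 36.4 CPM in MARK3i, against 25.2, 23.4, 23.1 and 21.8 CPM in Control. The groups did not overlap, and NPC1 was 1.6-fold higher (0.68 ± 0.08, adjusted p = 5.28e-08). RMC1 on the opposite strand shares 6.4% of the exon bases of NPC1 and rose by 0.56.

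LAMP2, a heavily glycosylated protein of the limiting membrane and the receptor of chaperone-mediated autophagy (ENSG00000005893, chrX:120426148-120469365, minus strand), had 125, 106, 105 and 103 CPM in MARK3i, against 83.3, 79.1, 71.1 and 73.6 CPM in Control. MARK3i replicate 1 was the highest, and the groups did not overlap. LAMP2 was 1.43-fold higher (0.51 ± 0.07, adjusted p = 8.74e-07). LAMP1, its more abundant relative, had 219, 230, 208 and 219 CPM in MARK3i, against 193, 199, 195 and 205 CPM in Control. The libraries did not overlap, but the change was small, 0.15 ± 0.05 or 1.11-fold (adjusted p = 0.0235). MCOLN1, the calcium channel mucolipin 1, had 34.2, 40, 34.7 and 36.9 CPM in MARK3i, against 29.7, 33.3, 32.2 and 32.4 CPM in Control. Its libraries did not overlap either, with a change of 0.20 ± 0.08 (adjusted p = 0.0299), or 0.36 with GC offsets. The LAMP1 call was lost in 6 of 18 alternative fits, among them those without MARK3i replicate 1 or 2 or Control replicate 1, 2 or 3 (adjusted p 0.0536 to 0.0733), and with total-count scaling its change was 0.25. The MCOLN1 call was lost in 7, among them those without MARK3i replicate 2 or 4 or Control replicate 1, 3 or 4 (adjusted p 0.0515 to 0.118). PNPLA6 on the same strand shares 0.2% of the exon bases of MCOLN1 and rose by 0.66 on the log2 scale.

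CD63, a tetraspanin of late endosomes, lysosomes and secreted vesicles (ENSG00000135404, chr12:55725323-55729707, minus strand), had the highest level per length of all 40 genes, 535 CPM per kb in MARK3i and 718 in Control, and fell. It had 573, 538, 517 and 562 CPM in MARK3i, against 731, 726, 734 and 748 CPM in Control. Every MARK3i library was below every Control library, with a log2 change of -0.43 ± 0.05 and a level 1.34-fold lower in MARK3i (adjusted p = 1.98e-07). With CD63 in the sum, the 7 membrane proteins together reached 1285 to 1387 CPM in MARK3i and 1274 to 1303 CPM in Control, ranges that overlapped. CLN3, a membrane protein lost in juvenile Batten disease, was barely detected, with 12, 39, 12 and 14 counts in MARK3i libraries and 5, 12, 15 and 11 in Control libraries. Its change of 0.42 ± 0.35 did not pass (adjusted p = 0.310). ENSG00000261832 on the same strand shares 25.3% of the exon bases of CLN3 and APOBR on the opposite strand 5.8%, and the part of these overlaps in the low counts was not tested.

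GRN, progranulin, a secreted and lysosomal precursor whose cleaved granulins are needed for lysosome function in neurons and myeloid cells (ENSG00000030582, chr17:44345246-44353106, plus strand), had 265, 291, 244 and 295 CPM in MARK3i, against 181, 175, 197 and 196 CPM in Control. The groups did not overlap, and GRN was 1.46-fold higher (0.55 ± 0.06, adjusted p = 6.24e-08).

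Members that work together can be read across the classes. CTSA, NEU1 and GLB1, which form 1 complex, all rose, by 0.36, 0.84 and 0.66. LIPA, NPC2 and NPC1, which free cholesterol and move it out, rose by 0.35, 0.68 and 0.68. In heparan sulfate breakdown, IDS rose by 1.09 and IDUA by 0.27, NAGLU fell by 1.09, and SGSH (-0.04) and GUSB (-0.10) did not pass. For GM2 ganglioside, the activator GM2A rose by 0.95, while HEXA (0.22) did not pass.

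Levels in Control spanned a wide range, with CD63, PSAP, NPC2 and GRN at 718, 210, 93.1 and 87.9 CPM per kb. Spearman's rho between mean Control CPM, not divided by length, and log2 change was -0.20 over the 40 genes. Between GC content and log2 change, rho was -0.26 over the 40 genes and -0.19 over all tested genes. The points share the same 8 libraries, so these are descriptions. Standard errors of the log2 changes were 0.05 to 0.35, with a median of 0.07.

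**Figure D3:**
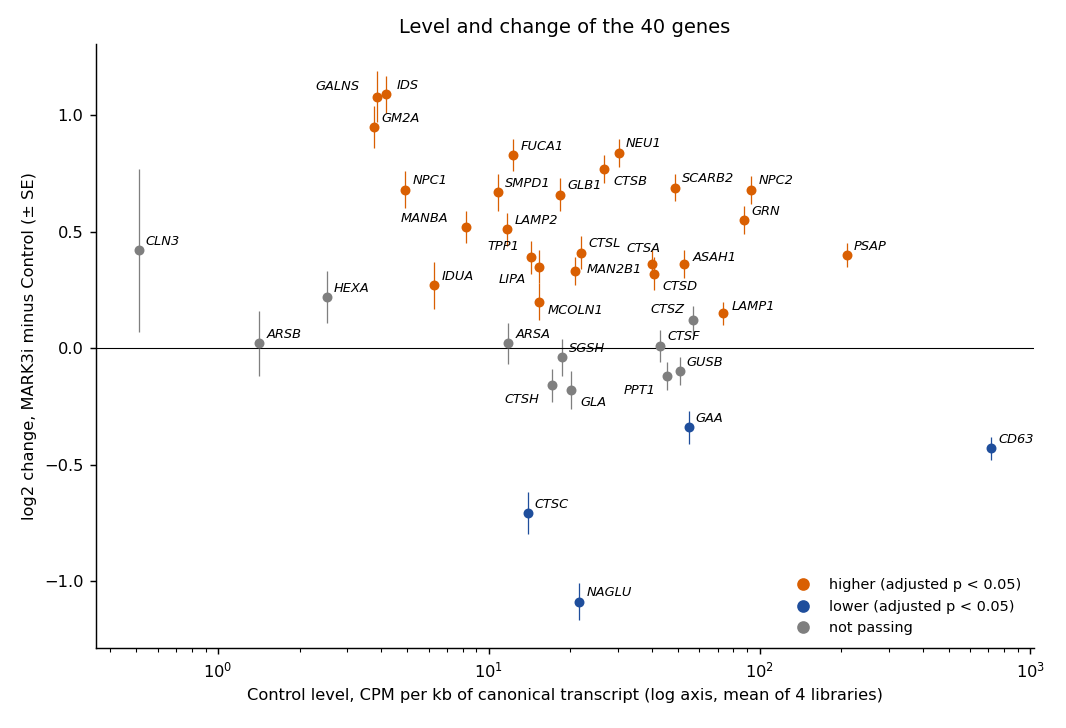
The horizontal log axis gives the mean Control level in CPM per kb of canonical transcript and the vertical axis the log2 change, MARK3i minus Control, with bars of 1 standard error; orange genes rose, blue fell and grey did not pass. IDS, GALNS and GM2A, with the largest rises, lie at low Control levels, but HEXA and ARSB, at lower levels, did not pass. CD63, the highest, fell by 0.43, and PSAP, the next highest, rose by 0.40.

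Other genes of the lysosome and its supply route were read from 6 lists. These too were chosen with earlier results of these data known, and their counts are descriptions, not independent support. Of 27 further lysosomal hydrolases and cofactors tested (30 listed), 19 rose, 4 fell and 4 did not pass, with a median log2 change of 0.40. SCPEP1, a serine carboxypeptidase, rose by 0.85 ± 0.07, HGSNAT, the acetyltransferase of heparan sulfate breakdown, by 0.59 ± 0.06, and CTSV, a cathepsin L relative, by 1.75 ± 0.20 at low level (4.4 CPM in MARK3i and 1.31 CPM in Control). ARSG, a heparan sulfatase, fell by 1.45 (2.91 CPM in MARK3i and 8.07 CPM in Control), the dipeptidyl peptidase DPP7 by 0.56 and the acid amidase NAAA by 0.61. Of 24 further membrane proteins tested (26 listed), 14 rose, 4 fell and 6 did not pass, and their median was 0.27. TMEM106B, a regulator of lysosome size and position, rose by 1.30 ± 0.08 and averaged 133 ± 13.1 CPM in MARK3i and 53.8 ± 5.70 CPM in Control. SIDT2, a nucleic acid transporter, and LMBRD1, which exports cobalamin, rose by 0.89 and 0.71, while the channel MCOLN2 fell by 1.47 (1.40 CPM in MARK3i and 3.91 CPM in Control), MFSD12 by 0.38 and TMEM192 by 0.29.

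The MiT factors moved in different directions. TFEB fell, with 10 ± 0.793 CPM in MARK3i and 15.0 ± 2.29 CPM in Control (-0.58 ± 0.12, adjusted p = 1.45e-04). TFE3 rose, with 37.3 ± 2 CPM in MARK3i and 26.5 ± 1.6 CPM in Control (0.50 ± 0.08, adjusted p = 5.35e-06), as did MITF, with 9.12 ± 0.959 CPM in MARK3i and 6.67 ± 0.164 CPM in Control (0.45 ± 0.12, adjusted p = 0.00325). These are RNA levels, and where the factors lay in the cell was not measured. Of the 16 MiT factors and regulators tested, 8 rose, 2 fell and 6 did not pass, and their median was 0.24. The Rag GTPases RRAGD and RRAGA, which tie nutrient state to these factors, rose by 0.53 and 0.41, and the Ragulator subunit LAMTOR2 fell by 0.42.

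Of 13 genes of mannose 6-phosphate tagging and sorting, 4 were higher and 4 lower (30.8% each), near the shares over all tested genes (29.8% and 28.3%), and their median was 0.12. The sorting receptors SORT1 and SORL1 and the adaptor subunit AP1G1 rose by 0.48, 0.70 and 0.28. GNPTAB, the transferase that adds the tag, fell by 0.30, the adaptor GGA1 by 0.41 and the adaptor subunit AP1S1 by 0.21. Of 14 genes of lysosome fusion and positioning, 8 rose, 0 fell and 6 did not pass, and their median was 0.22. VPS39 and VPS41, the subunits specific to the HOPS tethering complex, rose by 0.55 and 0.48, and PLEKHM1, an adaptor that binds it, by 0.77. Of 3 cathepsin and serine protease inhibitors tested (6 listed), SERPINB6 fell by 0.53 and 2 did not pass, and their median was 0.06.

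**Figure D4:**
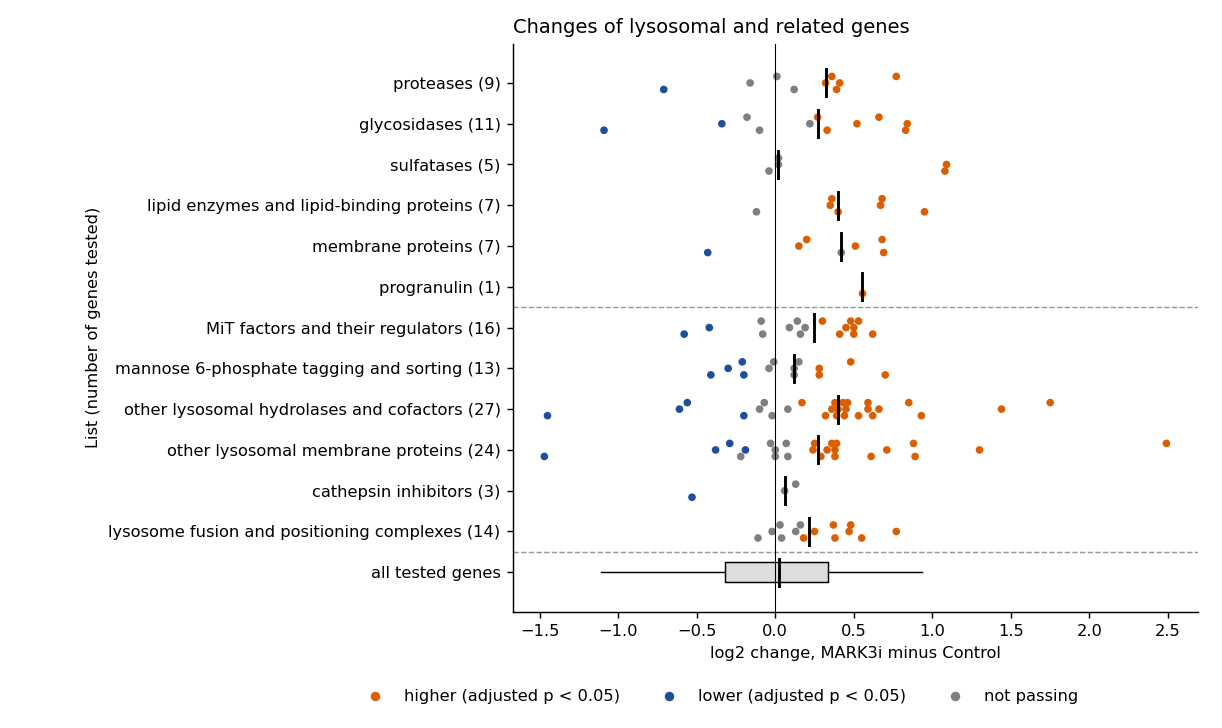
The horizontal axis gives the log2 change, MARK3i minus Control, and each row is a list with the number of genes tested; points are genes (orange higher, blue lower, grey not passing), black ticks are medians, and the box for all tested genes spans the 25th to 75th percentile with whiskers at the 5th and 95th. Medians are 0.32 for proteases, 0.27 for glycosidases, 0.02 for sulfatases, 0.40 for the lipid class and 0.42 for membrane proteins, where it is the value of CLN3 and drops to 0.15 without MARK3i replicate 2, against 0.02 for all tested genes.

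Total-count scaling shifted the 40 genes and the background together. With total-count scaling the median of all tested genes was 0.126, with 6274 genes higher and 3596 lower, against 4897 higher and 4652 lower with TMM. Under that scaling 27 of the 40 genes were higher and 4 lower, with a median of 0.456, which lies above its own background median.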

How the data were processed

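The deposited values are raw counts per gene in 1 file per sample, made by the authors with featureCounts on hg38, per the submitters' processing notes, which also name DESeq2. The sources used here do not give the aligner, annotation, versions or strandedness. Sample titles gave the group and replicate number. Symbols, coordinates and transcript lengths came from GENCODE on hg38, and 528 identifiers without a symbol stayed in the tests. Pairs of libraries were compared by chi-square over genes with a mean count of at least 10, which gave 3.40 to 9.80 per degree of freedom within MARK3i and 1.71 to 4.60 within Control, so no pair agreed within sampling noise, against 34.8 to 48.3 between groups.

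The test was that of edgeR 4.0.16, run in R 4.3.3 (filterByExpr, 16452 genes kept, TMM factors 1.011 to 1.059 in MARK3i and 0.9598 to 0.9682 in Control, glmQLFit with robust dispersion, glmQLFTest on the group). A gene was called at a p under 0.05 after Benjamini-Hochberg adjustment across the genes kept, and the standard error is the size of the log2 change divided by the square root of F. The common biological coefficient of variation was 7.2%. Levels per kb divide CPM by the length of the Ensembl canonical transcript. Genes whose exons overlap those of a member are named for some members only.

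Values in every library are given, in each class, for up to 3 called genes with the largest change, the gene with the highest Control level per kb and called genes against the majority, and for some others beside a limit. From each further list, up to 3 called genes per direction with the smallest p are named, besides TFEB, TFE3 and MITF. The members and lists were chosen with earlier results of these data known. Tried beside this were scaling by total counts, RLE or upper quartile, all genes unfiltered, a filter of 1 CPM in 4 libraries, DESeq2 1.42.0, limma-voom (limma 3.58.1), GC offsets, a replicate block, leaving out each library, and an adjusted p under 0.01.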

Additional observations from a re-analysis of the deposited data

Results flagged for a closer look

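In 80 groups of 4 libraries (40 genes in MARK3i and in Control), 1 library stood apart from the others of its group in 5, where chance gives about 1 in 20 groups. NAGLU had 21.7 CPM in MARK3i replicate 1, next to 25.7 CPM in the nearest MARK3i library. LAMP2 had 125 CPM in MARK3i replicate 1, next to 106 CPM. CLN3 had 1.75 CPM in MARK3i replicate 2, the most deeply sequenced library, next to 0.968 CPM. IDUA had 15.3 CPM in Control replicate 3, next to 13.3 CPM. CTSZ had 79.7 CPM in Control replicate 1, next to 87.2 CPM.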

How the results depend on the processing

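Of the 29 called genes, 26 kept direction and call in all 18 alternative fits, and no called gene changed sign. IDUA, LAMP1 and MCOLN1 lost the call in some, with adjusted p up to 0.115, 0.0914 and 0.118. ARSA, CTSH, CTSZ, GLA, HEXA and PPT1, not called, were called in at least 1. With total-count scaling the median of the 40 genes was 0.456. Counts of members were 22 higher and 4 lower with no filter, 23 and 4 with DESeq2, and 26 and 6 with GC offsets. Leaving out each library gave 22 to 25 higher, 4 to 6 lower (6 without MARK3i replicate 1, with GLA and PPT1 lower), 8867 to 9347 genes called over all and medians of 0.314 to 0.360. Changes that did not pass and changed sign were GUSB 0.0053 and SGSH 0.067 (total counts), CTSF -1.1e-04 (DESeq2), ARSB -0.011 (limma-voom), ARSB -0.014 and SGSH 0.090 (GC offsets), and, leaving out a library, over ranges of -0.055 to 0.068 (ARSA), -0.025 to 0.055 (CTSF), -0.061 to 0.14 (ARSB) and -0.090 to 0.011 (SGSH). The cause was not tested.

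Deviations from the group means correlated at 0.131, -0.0875, -0.0533 and 0.0838 between same-numbered libraries of MARK3i and Control. MARK3i replicates 1 and 3 correlated positively with Control replicates 1 and 2 (0.027 to 0.131) and negatively with Control replicates 3 and 4. MARK3i replicates 2 and 4 did the reverse, with 0.0838 to 0.129 for Control replicates 3 and 4. The labels name no batch, and whether libraries across the groups shared one was not tested. With the replicate block, 25 genes were higher and 4 lower, the median was 0.350 and 9596 genes were called, and with the block and GC offsets 26 were higher and 6 lower, with ARSB at -0.012 and SGSH at 0.087. CLN3, with 5 to 39 counts per library, had the largest standard error (0.35).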

Other observations

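The mucolipin channels differed in direction. MCOLN3, named here after its values were seen, averaged 2.90 ± 0.805 CPM in MARK3i and 0.518 ± 0.194 CPM in Control and rose by 2.49 ± 0.31 (adjusted p = 2.33e-07 in edgeR's quasi-likelihood test), while MCOLN2 was lower.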
